A study of Mus musculus with 8 samples.

Results

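The 10 genes described here encode the enzymes and the activating protein that turn arachidonic acid into prostaglandins and leukotrienes: Ptgs1, Ptgs2, Ptges, Ptgis, Tbxas1, Alox5, Alox5ap, Alox15, Lta4h and Ltc4s. They were chosen by name, from the gene names that the array files give. No measured value was part of that rule, but earlier results of these data were known. All 10 were on the array, of 37074 gene names in all, and all 10 passed the filter on dim probes, which 18621 genes passed. They were read by 19 probes, of which 15 passed.

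RNA of peritoneal macrophages was measured on 8 one-colour Agilent arrays, 4 for the wild type (wt) and 4 for the Card9 knockout (Card9-/-). Card9 is the adaptor that carries signals of fungal receptors such as Dectin-1 to NF-kB. Both groups had the same treatment. Mice were given 1 ml of 3% thioglycolate, which draws cells into the peritoneum, and peritoneal cells were taken on day 4. They were also given zymosan, a yeast cell wall preparation, at 500 mg/kg for 4 h, so that each value compares the genotypes after zymosan. After plating for 3 h, the cells that adhered were kept. The labels give neither strain, age nor sex, and do not say where zymosan falls among these steps. Cells of 4 or 5 mice were collected in each group. Whether the 4 arrays of a group hold separate mice or parts of 1 pool is not stated, so the p-values cover only the spread between these samples, which may be technical.

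Both branches of the pathway begin with arachidonic acid that phospholipase A2 frees from membranes. Cyclooxygenases turn it into prostaglandin H, from which separate synthases make prostaglandin E, prostacyclin and thromboxane, while lipoxygenases make leukotrienes and related lipids. In the peritoneum, resident macrophages are a known source of these lipids early in zymosan peritonitis, and Ptgs2 is the member best known to be switched on by inflammatory signals.

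The samples differed widely within the wt group, and this has to be known before the members are read. Levels are given as the log2 signal minus the 75th percentile of that array, with 0 at that percentile, and each level is read only against the same probe on other arrays. Card9 signal exceeded background clearly in 3 of the 4 wt libraries, the exception being the library labelled wt replicate 1, and in 0 of the 4 Card9-/- libraries. Each wt library carried Xist and each Card9-/- library carried Y-linked Eif2s3y, Ddx3y and Uty, so sex and genotype cannot be told apart. The arrays of wt replicates 1 and 2 correlated at 0.985 across genes, more than any other pair (0.822 to 0.969). Between 47.8% and 56.5% of spots were well above background, and 0 were saturated. Card9-/- replicate 4 shared slide 1 with the 4 wt arrays, and the other Card9-/- arrays were on slides 2 and 3.

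Macrophage markers were checked because the samples are labelled as macrophages. Of 8 listed markers 7 were on the array (Adgre1, Cd14, Cd68, Csf1r, Fcgr1, Itgam and Mertk). Of these, 5 were well above background on all 4 wt arrays and 6 on all 4 Card9-/- arrays, and Mertk on 0 Card9-/- arrays. In wt replicates 1 to 4 their mean level was -0.43, -0.23, 5.48 and 4.11, whereas Card9-/- replicates 1 to 4 had 1.16, 0.80, 1.17 and 1.54. In this mean the wt arrays thus stood both below and above all Card9-/- arrays. Itgam alone did not split so, at 4.07, 3.46, 5.97 and 4.08 across wt replicates 1 to 4. On Card9-/- replicates 1 to 4 Itgam was at 1.97, 3.45, 2.52 and 4.36. Mertk and Fcgr1 were each well above background on only 2 wt arrays. The mean of the 7 markers of resident large peritoneal macrophages (Gata6, Timd4, Cd5l, Icam2, Selp, Vsig4 and Marco) had the same split. It was at -3.37, -2.70, 5.53 and 3.59 in wt and -1.33 to -0.33 in Card9-/-. Singly, Marco on Card9-/- replicate 2 (-1.17) lay below wt replicate 2 (-0.96). All 5 listed B cell markers were well above background on every array. Their mean was 4.58, 4.35, 3.48 and 4.38 across wt replicates 1 to 4, and 4.08 to 5.00 in Card9-/-. In bulk RNA, fewer cells of a type and less RNA per cell cannot be told apart.

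In most of the enzymes wt replicates 3 and 4 were the highest 2 arrays, as for the macrophage marker mean. In Alox5ap, Ltc4s, Ptges, Ptgs1 and Tbxas1 wt replicates 1 and 2 were also the lowest 2, the full split of that mean. None of the 10 passed the test between genotypes. Within Card9-/- the marker mean ran only from 0.80 on replicate 2 to 1.54 on replicate 4. None of the 10 enzymes had these arrays as lowest and highest. The order of such close means, which include Mertk, cannot be read further. In 9 of 10 members wt replicate 3 was the highest array (27.0% of all genes), and in 8 of 10 wt replicates 3 and 4 were the highest 2 of the 8 arrays (14.5% of all genes tested), and in 9 of 10 the lowest array was wt replicate 1 or 2 (17.4% of all genes). Both were the lowest 2 in 6 of 10 (9.91% of all genes). The median SD of the members was 3.27 in wt and 0.74 in Card9-/- (n = 4 arrays each), against 0.68 and 0.59 over all genes. In 9 of 10 members the SD in wt was over 2 times that in Card9-/-. The test (limma) assumes the same spread in both groups, so its intervals and p-values for these members are approximate. The part of the cell makeup in these levels was not tested beyond the values given below.

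**Figure D1:**
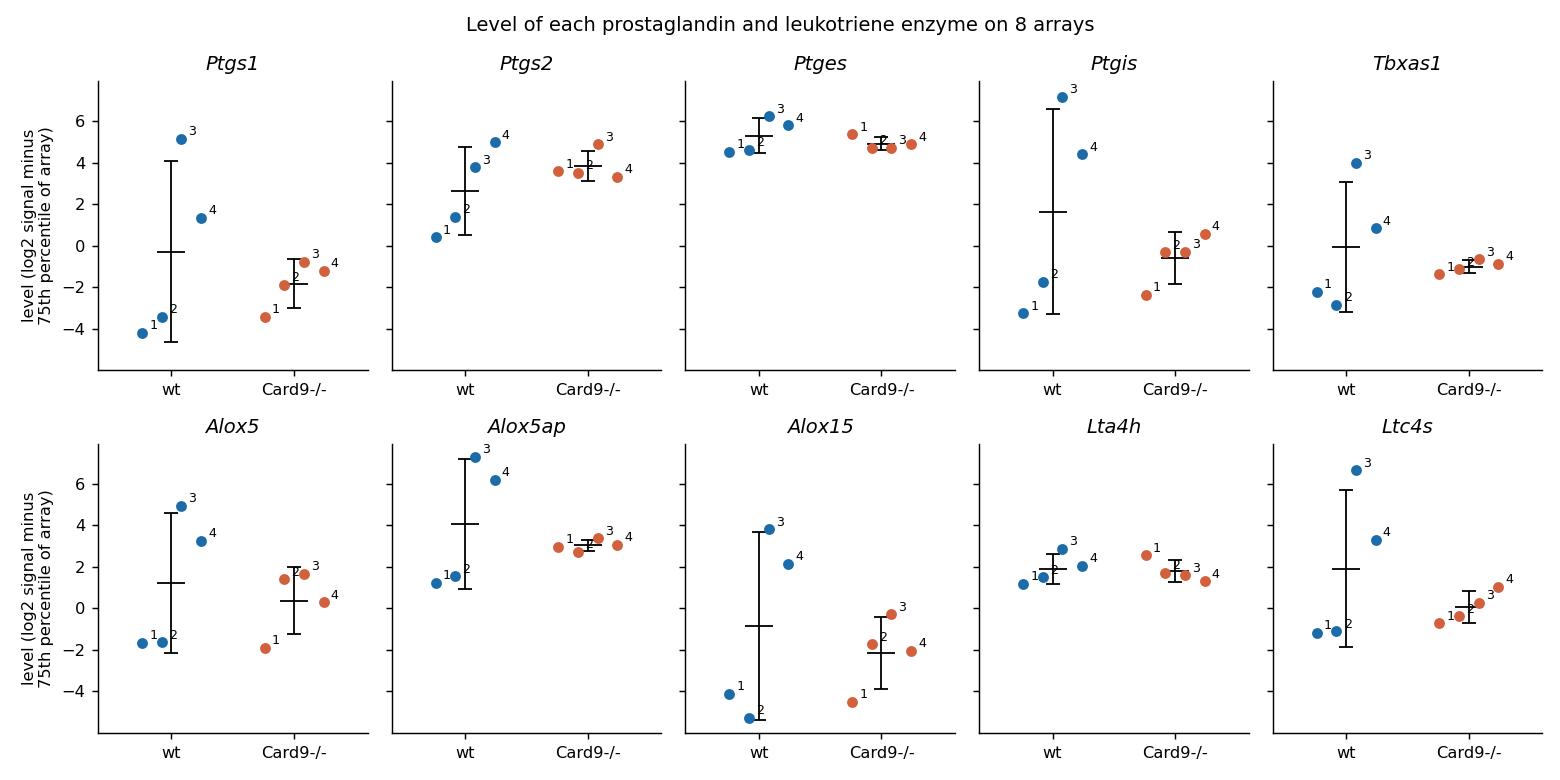
Level (log2 signal minus the 75th percentile of the array) of the 10 enzymes in wt (blue) and Card9-/- (orange). Points are arrays with their replicate number, and bars are the mean ± SD of 4 arrays; wt replicate 3 is the highest array in 9 of 10 panels, and Ptgs2 is the exception.

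The cyclooxygenases, which take the first step to all prostaglandins, behaved unlike each other. Ptgs1, the form that many cells carry at rest, was read on chromosome 2 (mm9, 36107644 to 36107703, plus strand). It stood at -4.21, -3.43, 5.14 and 1.33 across wt replicates 1 to 4, and Card9-/- replicates 1 to 4 had -3.43, -1.88, -0.78 and -1.21. The wt arrays lay on both sides of the Card9-/- arrays, 651-fold apart from lowest to highest, and the lowest Card9-/- value was not well above background. The group means were -0.29 ± 4.37 and -1.82 ± 1.16 (SD, n = 4 each), a difference of -1.53 (95% interval -5.65 to 2.58, limma adjusted p = 0.902; exact permutation p = 0.600). A probe of another Ptgs1 transcript was well above background on 0 arrays.

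Ptgs2, the inducible form, was the 1 member with the higher mean in Card9-/- (probe on chromosome 1, 151954744 to 151954803, plus strand). Its level was 0.40, 1.40, 3.77 and 4.98 across wt replicates 1 to 4, and Card9-/- replicates 1 to 4 had 3.59, 3.51, 4.88 and 3.30. All 4 Card9-/- arrays lay above wt replicates 1 and 2 and below wt replicate 4, so the groups overlapped. The means were 2.64 ± 2.11 in wt and 3.82 ± 0.72 in Card9-/- (SD, n = 4 each), a difference of 1.18 that did not pass (95% interval -0.92 to 3.29, limma adjusted p = 0.851; exact permutation p = 0.400). The difference was 0.44 without the library labelled wt replicate 1, 0.77 without wt replicate 2, 1.96 without wt replicate 4 and 0.61 with wt replicates 1 and 2 averaged.

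Ptgs2 was the member that was not highest on wt replicate 3. On wt replicate 3, the array with the highest macrophage markers, Ptgs2 (3.77) was below wt replicate 4 and Card9-/- replicate 3 (4.88) and above Card9-/- replicates 1, 2 and 4 (3.59, 3.51 and 3.30). Ptgs1 on that array (5.14) was above all 4 Card9-/- arrays. With the mean of the 7 macrophage markers of each array as a covariate, an alternative chosen after the values were seen, Ptgs2 differed by 1.84 (SE 0.59, unadjusted p = 0.0130), which did not pass adjustment over all genes (limma adjusted p = 0.433). In that fit 1819 of 18621 genes had an unadjusted p under 0.05, and Ptgs2 was the 1 member among them.

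**Figure D2:**
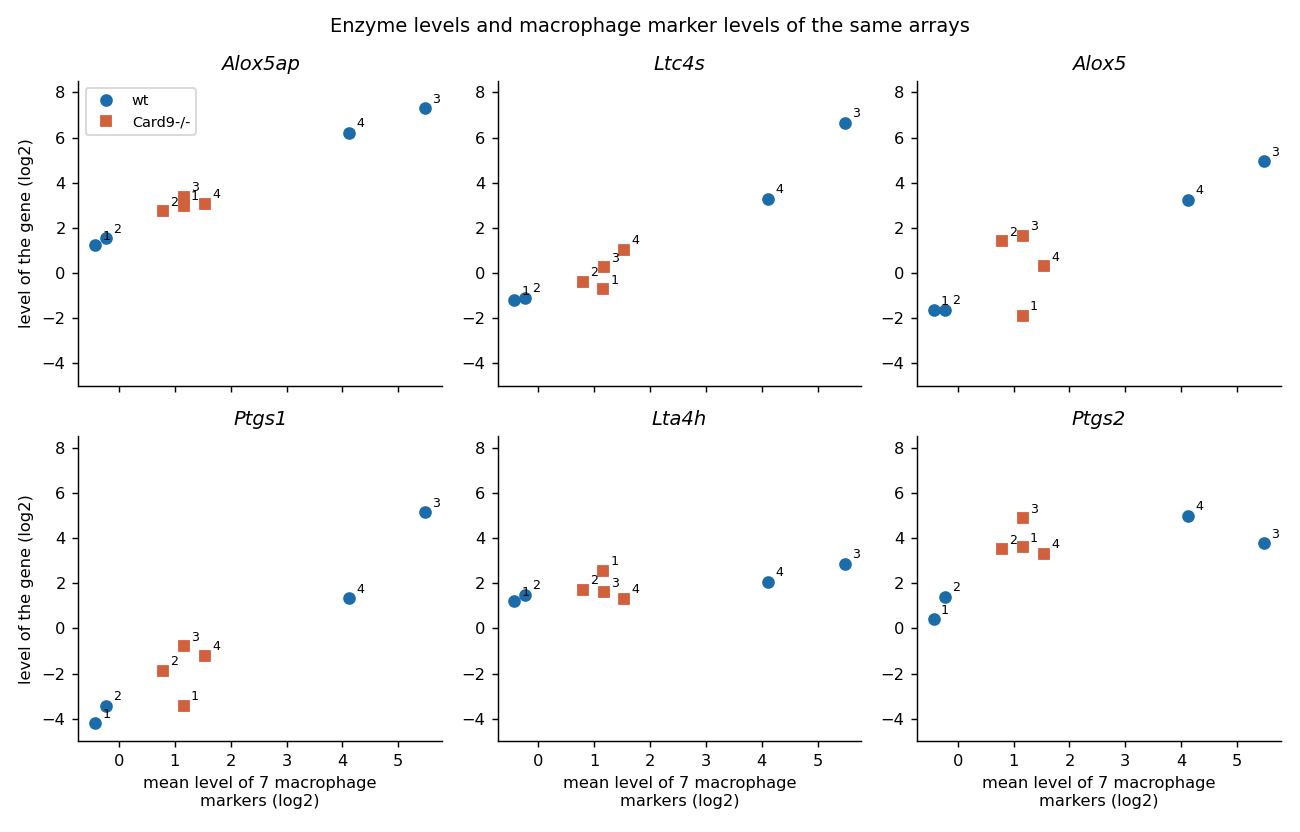
Level of 6 of the enzymes (vertical axis, log2) against the mean level of 7 macrophage markers on the same array (horizontal axis, log2), with 1 point per array and its replicate number. Alox5ap, Ltc4s and Ptgs1 are highest on wt replicate 3, at a marker mean of 5.48, while Ptgs2 is at 3.77 there and at 3.30 to 4.88 on the Card9-/- arrays.

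The promoters of both cyclooxygenases and of Alox5 are shown because these genes start the pathway, and Ptgs2 moved unlike Ptgs1 and Alox5 across arrays. RefSeq entries (GRCm38.p6) matched 7 of 10 members by symbol, and those of Ptgis, Alox5ap and Alox15 were missing. The 250 bases before the start are printed 5′ to 3′ on the strand of the gene. They span chr1:150099781-150100030 (plus strand) for Ptgs2, chr2:36230176-36230425 (plus strand) for Ptgs1 and chr6:116461179-116461428 (minus strand) for Alox5. Capitals mark matches, on either strand, to ETS (GAGGAA), C/EBP (TTGCNNAA), SP1 (GGGCGG), cyclic AMP element (ACGTCA) or NF-kB motifs, which do not overlap in these stretches.
Ptgs2: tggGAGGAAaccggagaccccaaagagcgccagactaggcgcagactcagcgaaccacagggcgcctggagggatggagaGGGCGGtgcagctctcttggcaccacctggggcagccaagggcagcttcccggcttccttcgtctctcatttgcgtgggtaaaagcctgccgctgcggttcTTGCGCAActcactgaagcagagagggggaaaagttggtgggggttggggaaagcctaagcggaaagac
Ptgs1: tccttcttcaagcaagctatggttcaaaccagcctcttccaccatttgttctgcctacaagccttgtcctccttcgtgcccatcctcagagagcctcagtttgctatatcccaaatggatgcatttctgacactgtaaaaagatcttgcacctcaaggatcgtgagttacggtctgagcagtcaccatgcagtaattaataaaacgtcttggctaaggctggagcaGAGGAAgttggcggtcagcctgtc
Alox5: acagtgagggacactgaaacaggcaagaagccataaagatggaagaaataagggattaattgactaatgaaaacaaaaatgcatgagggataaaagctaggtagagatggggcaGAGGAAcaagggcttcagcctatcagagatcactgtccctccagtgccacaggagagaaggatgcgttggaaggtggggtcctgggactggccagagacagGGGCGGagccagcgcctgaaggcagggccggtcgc
The C/EBP letters were in the Ptgs2 stretch, 69 bases before the start, and in 0 of the other 6 members with an entry, against 9.56% of all 32851 promoter stretches of that length. GAGGAA was in 6 of the 7 (23.3% of all) and SP1 in Ptgs2, Ptges and Alox5 (32.7% of all). The cyclic AMP element (6.47% of all) and the NF-kB motif (7.25% of all) were in 0 of the 7, which says only that these letters are not in this window.

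The prostanoid synthases act on the product of the cyclooxygenases. Ptgis, which makes prostacyclin, had the widest span of all members, at -3.26, -1.75, 7.17 and 4.41 across wt replicates 1 to 4, and Card9-/- replicates 1 to 4 had -2.36, -0.31, -0.30 and 0.57. Card9-/- replicates 2, 3 and 4 lay between the lower and the upper pair of wt arrays, and Card9-/- replicate 1 lay between wt replicates 1 and 2. The lowest and highest arrays were 1382-fold apart. The means were 1.64 ± 4.96 and -0.60 ± 1.24 (SD, n = 4 each), and the difference of -2.24 did not pass (95% interval -6.88 to 2.40, limma adjusted p = 0.866; exact permutation p = 0.429).

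Another Ptgis probe, from base 1347 of the transcript, differed in the same direction (-2.63, SE 2.01) as the brighter one from base 1691 (chromosome 2, 167028696 to 167028755, minus strand). It was not well above background on wt replicate 1 and Card9-/- replicate 1, so its lowest levels and that difference are limited by background. A probe of another Ptgis transcript was well above background on only 2 wt arrays and 1 Card9-/- array. Markers of mesothelial and stromal cells, where prostacyclin synthase is also known, had a mean of -4.91, -3.86, -1.31 and -2.56 in wt and -3.55 to -2.07 in Card9-/- (7 of 7 listed on the array, 3 well above background on all arrays of each group, Pdgfra on none). Their order in wt was that of Ptgis. The marker means of macrophages, resident macrophages and mast cells had that order in wt too. Within Card9-/- the mesothelial and stromal mean was not in the order of Ptgis. It was at -3.55, -2.07, -2.60 and -3.20 in replicates 1 to 4, and Ptgis was highest on replicate 4. The part of any of these cell types in Ptgis was not tested.

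Tbxas1, which makes thromboxane, was at -2.23, -2.85, 3.98 and 0.84 across wt replicates 1 to 4, and Card9-/- replicates 1 to 4 had -1.38, -1.14, -0.65 and -0.88. The probe lies on chromosome 6 (39034356 to 39034415, plus strand). Card9-/- arrays differed from each other by at most 1.66-fold and wt arrays by up to 114-fold. The difference of -0.95 did not pass (95% interval -3.86 to 1.96, limma adjusted p = 0.917; exact permutation p = 0.600). Thromboxane synthase is also an enzyme of platelets, whose 7 listed markers had a mean of -3.72 to -2.02 in wt and -3.92 to -2.69 in Card9-/- replicates 1 to 3, and 0.80 in Card9-/- replicate 4. Only 2 of them were well above background on all wt arrays and 1, Pf4, on all Card9-/- arrays. Pf4 was at 0.91, 1.05, 8.56 and 7.38 across wt replicates 1 to 4, and Card9-/- replicates 1 to 4 had 0.96, 2.47, 2.95 and 4.55. The part of platelets in Tbxas1 was not tested. Tbxas1 on Card9-/- replicate 4 (-0.88) lay within the range of the other 3 Card9-/- arrays. Both other Tbxas1 probes were well above background on 0 wt arrays, and on 2 and 0 Card9-/- arrays.

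Ptges, the inducible synthase of prostaglandin E, gave a picture that depended on the probe. It is read by 3 probes on chromosome 2 (mm9, minus strand), from bases 364 (30748214 to 30748273), 740 (30747838 to 30747897) and 3583 (30744995 to 30745054) of the same transcript. The first 30 of 60 bases of each are shown so that the measured stretches can be told apart.
Ptges from base 364: aaccctctgatcgcctggatacatttcctc
Ptges from base 740: gccacttacagatgagctgtcaagatttga
Ptges from base 3583: atgataaaggactaaacctctgaacctgta

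The probe from base 3583, the brightest, stood for the gene and was at 4.52, 4.63, 6.24 and 5.79 across wt replicates 1 to 4, and Card9-/- replicates 1 to 4 had 5.37, 4.71, 4.71 and 4.88. It spanned only 3.30-fold over the 8 arrays and differed by -0.38 (95% interval -1.42 to 0.67, limma adjusted p = 0.905; exact permutation p = 0.486). The probe from base 740 was at -3.22, -0.82, 3.86 and 3.69 across wt replicates 1 to 4, and Card9-/- replicates 1 to 4 had -2.25, -2.42, -1.66 and -1.04, a span of 135-fold. The probe from base 364 spanned 24.1-fold. In the fit of all 28169 probes the differences at bases 740 and 364 were -2.72 (SE 1.42, limma adjusted p = 0.766) and -1.77 (SE 0.96, limma adjusted p = 0.776). All 3 probes were well above background on all 8 arrays, and all 3 were highest on wt replicates 3 and 4. Quantile normalization turned the difference at base 3583 to 0.087, and the authors' matrix to 0.044.

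**Figure D3:**
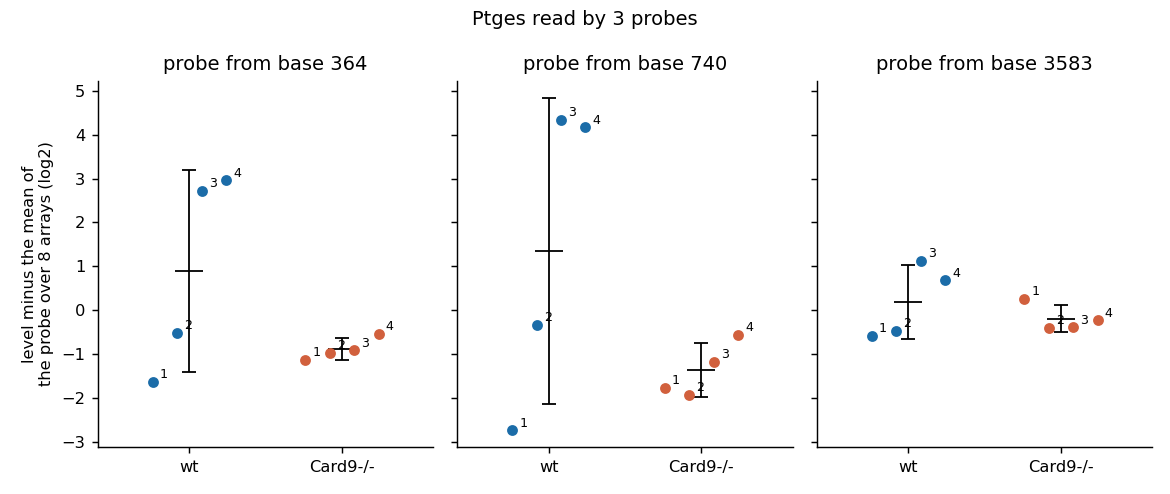
Level of Ptges at each of its 3 probes, named by the base of the transcript where they start, with the mean of the probe over the 8 arrays subtracted (log2). Points are arrays with their replicate number, and bars are the mean ± SD of 4 arrays; the span is 24.1-fold at base 364, 135-fold at base 740 and 3.30-fold at base 3583.

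In the leukotriene branch, Alox5 oxidises arachidonic acid and Alox5ap presents the substrate to it. Alox5ap was at 1.24, 1.54, 7.30 and 6.20 across wt replicates 1 to 4, and Card9-/- replicates 1 to 4 had 2.97, 2.73, 3.38 and 3.07. The 4 Card9-/- arrays lay within 1.57-fold of each other, and every one of them fell between the lower and the upper pair of wt arrays, which spanned 66.6-fold. The difference of -1.03 did not pass (95% interval -3.93 to 1.86, limma adjusted p = 0.906; exact permutation p = 0.514). Its other probe, from a cDNA clone, spread more in Card9-/-, from 0.78 to 2.81, and differed by -1.72 (SE 1.32).

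Alox5 was at -1.64, -1.63, 4.96 and 3.25 across wt replicates 1 to 4, and Card9-/- replicates 1 to 4 had -1.90, 1.40, 1.66 and 0.30. The probes lie on chromosome 6 (116360326 to 116360385, minus strand) for Alox5 and chromosome 5 (150099347 to 150099406, plus strand) for Alox5ap. Unlike Alox5ap, Alox5 varied among the Card9-/- arrays, by 11.7-fold, with replicate 1 the lowest of all 8. The difference of -0.87 did not pass (95% interval -4.30 to 2.57, limma adjusted p = 0.940; exact permutation p = 0.657). Mast cells are another known source of leukotrienes, and all 7 of their listed markers were well above background on every array. Their mean was 1.42, 2.28, 4.83 and 4.31 across wt replicates 1 to 4, and Card9-/- replicates 1 to 4 had 0.71, 4.32, 4.46 and 1.92. Within Card9-/- this is the order of Alox5 and also of Alox15. Neutrophil markers, of another Alox5-bearing cell, were at 1.96, 2.47, 1.75 and 4.63 in wt and at 0.64, 2.87, 2.67 and 3.91 in Card9-/- (8 of 8 listed on the array). The part of either cell type in Alox5 or Alox15 was not tested.

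Alox15, the lipoxygenase that marks resident and alternatively activated peritoneal macrophages, was at -4.11, -5.28, 3.81 and 2.16 across wt replicates 1 to 4, and Card9-/- replicates 1 to 4 had -4.49, -1.74, -0.29 and -2.05. On wt replicate 2 and Card9-/- replicate 1 it was not well above background. These arrays were the lowest of their groups, so the spans of 547-fold in wt and 18.4-fold in Card9-/- are limited by background. Within Card9-/- replicate 1 was the lowest and replicate 3 the highest, as for Ptgs1, Tbxas1 and Alox5. The difference of -1.29 did not pass (95% interval -5.68 to 3.11, limma adjusted p = 0.928; exact permutation p = 0.571). Its probe lies on chromosome 11 (mm9, 70159115 to 70159339, minus strand) and spans 225 genomic bases, more than its 60, so its bases are not contiguous in the genome. Eosinophils are another cell type known for Alox15, and their markers (5 of 6 listed on the array, Epx well above background on none) had a mean of -2.41 to -0.06 in wt, highest on replicate 4, and -2.77 to -0.51 in Card9-/-. Their part in Alox15 was not tested.

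The last enzymes of the leukotriene branch parted from each other. Ltc4s, which joins glutathione to leukotriene A to start the cysteinyl leukotrienes, was at -1.19, -1.09, 6.65 and 3.30 across wt replicates 1 to 4, and Card9-/- replicates 1 to 4 had -0.72, -0.38, 0.26 and 1.03. All 4 Card9-/- arrays were above the lower and below the upper pair of wt arrays. The means were 1.92 ± 3.79 and 0.05 ± 0.77 (SD, n = 4 each), and the difference of -1.87 did not pass (95% interval -5.41 to 1.67, limma adjusted p = 0.855; exact permutation p = 0.429).

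Lta4h, the hydrolase that makes leukotriene B, was the steadiest member. It was at 1.19, 1.49, 2.86 and 2.06 across wt replicates 1 to 4, and Card9-/- replicates 1 to 4 had 2.55, 1.72, 1.59 and 1.31, a span of 3.17-fold. The probes lie on chromosome 10 (92947503 to 92947562, plus strand) for Lta4h and chromosome 11 (50049974 to 50050031, minus strand) for Ltc4s. The Lta4h difference of -0.11 had a 95% interval of -1.16 to 0.94 (limma adjusted p = 0.983; exact permutation p = 0.83), so changes beyond about that size lie outside the interval while smaller ones cannot be told from none. A probe of a cDNA clone named for Lta4h did not follow it, being lowest in wt on replicate 3 (-1.97) and highest on replicate 1 (-0.85), with a difference of -0.80 (SE 0.46).

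Across the 10 members, 0 passed an adjusted p of 0.05 in limma, where 5 of 18621 genes did (0.0269%), 4 of them higher (0.0215%) and 1 lower (0.00537%) in Card9-/-. At an unadjusted p under 0.05 there were also 0 members, against 7.23% of all genes (2.64% higher and 4.59% lower), and in 0 members did the groups not overlap, against 5.23%. The mean was lower in Card9-/- for 9 of 10, with a median difference of -0.99 over the members and -0.09 over all genes, 56.3% of which lay below 0, but Ptges and Lta4h turned above 0 with quantile normalization (0.087 and 0.045). In most of the 9 that direction rested on wt replicate 3. Without it, Ptgs1 (0.28), Tbxas1 (0.40), Alox5 (0.37), Alox5ap (0.04), Alox15 (0.27) and Lta4h (0.21) turned above 0. The differences of Ptgis (-0.40), Ltc4s (-0.29) and Ptges (-0.06) shrank and stayed below 0. Leaving it out left wt replicates 1 and 2, the most alike pair of arrays, beside wt replicate 4. Without the library labelled wt replicate 1, Ptgis and Ltc4s differed by -3.88 and -2.91.

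A fit blocked on slide draws its contrast from Card9-/- replicate 4 alone. In it the differences ran from -1.20 for Alox15 to 0.67 for Ptgs2, and so they did within slide 1 (limma adjusted p of 0.807 to 0.938 with the block and 0.834 to 0.949 within the slide). With the macrophage marker mean as a covariate, the 5 largest negative differences moved toward 0, to -0.50 for Ptgis, -0.54 for Ltc4s, -0.02 for Ptgs1, 0.27 for Alox15 and 0.07 for Alox5ap. The covariate was read from the same arrays as the enzymes, and its markers include Itgam, which did not split as their mean did.

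**Figure D4:**
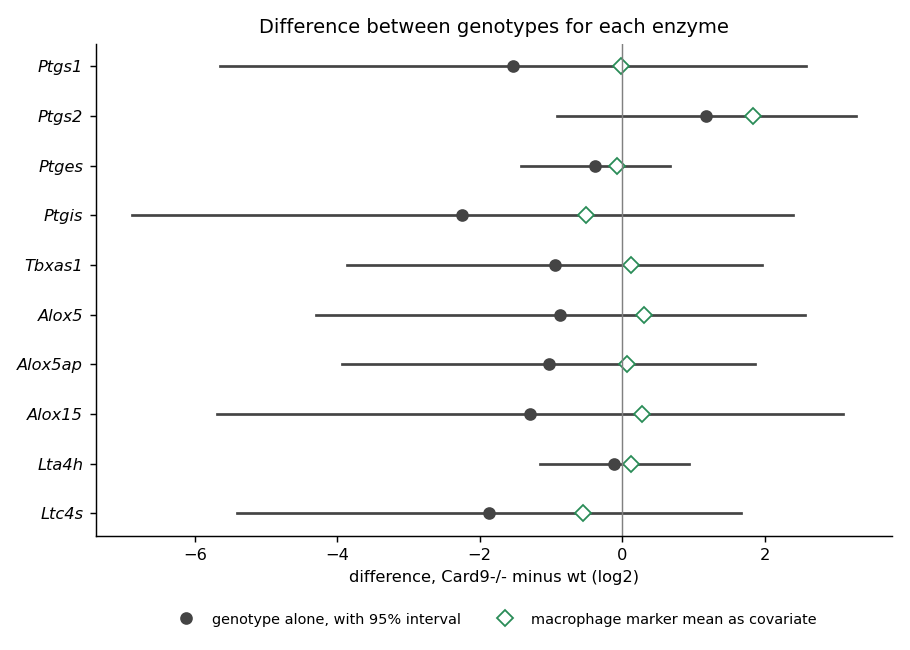
Difference between genotypes (Card9-/- minus wt, log2) for each enzyme, as dots with 95% intervals from limma, and as open diamonds with the macrophage marker mean as a covariate. Every interval includes 0; the diamonds lie between -0.54 and 0.30 for all enzymes except Ptgs2, at 1.84.

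Other genes that supply, clear or sense these lipids were taken from a list of 52 names, 49 of them on the array and 31 tested. Of the 31, 0 passed in either direction. In limma 2 had an unadjusted p under 0.05, against 7.23% of all genes in either direction. Both were higher in Card9-/- (2.64% of all genes) and 0 were lower (4.59% of all genes). The median difference was -0.14, with 12 higher and 19 lower in mean. In 10 of the 31, wt replicates 3 and 4 were the highest 2 arrays (14.5% of all genes tested). The names tested were 8 of 11 phospholipases A2, 4 of 6 other prostanoid synthases, 1 of 5 other lipoxygenases, 6 of 9 other leukotriene enzymes and exporters, 6 of 7 genes of inactivation and uptake, 4 of 10 prostanoid receptors and 2 of 4 leukotriene receptors.

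Cysltr2, a receptor for the cysteinyl leukotrienes that Ltc4s starts, had the smallest p among them. Its level was -4.36, -3.43, -3.31 and -3.03 across wt replicates 1 to 4, and Card9-/- replicates 1 to 4 had -1.13, -1.62, -1.99 and -2.29. The groups did not overlap, as in 1.54% of all genes in that direction. The difference of 1.78 (95% interval 0.83 to 2.72) had an exact permutation p of 0.0286, the smallest that 70 permutations can give, and did not pass over all genes (limma adjusted p = 0.510). Its signal stood clear of background in 3 wt and 4 Card9-/- libraries. The mean of the T and natural killer cell markers (7 of 7 listed on the array) was also higher on every Card9-/- array (0.02 to 2.00) than on any wt array (-1.94 to -1.19). Singly, Cd3e and Ncr1 lay higher on wt replicate 3 (2.01 and -5.33) than on Card9-/- replicate 3 (1.87 and -5.83). Ncr1 signal stood clear of background in 0 wt libraries and 1 Card9-/- library. Among the Card9-/- arrays, that mean and Cysltr2 were both highest in replicate 1. The lowest was replicate 3 for the mean and replicate 4 for Cysltr2. The part of those cells in Cysltr2 was not tested.

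Alox12b, the skin lipoxygenase, was at -6.14 to -3.37 in wt and -3.37 to -1.72 in Card9-/-, with overlapping groups and 2 wt arrays well above background (difference 1.97, limma adjusted p = 0.559). Ptges2, a membrane-bound prostaglandin E synthase, did not overlap, at -0.03 to 0.49 in wt and -0.86 to -0.21 in Card9-/-, as in 3.69% of all genes in that direction. Its difference of -0.67 did not pass (95% interval -1.42 to 0.07, limma adjusted p = 0.726). The differences of the other genes named by the smallest p were -1.96 for the lysosomal phospholipase gene Pla2g15, -1.22 for the prostaglandin transporter gene Slco2a1, 1.87 for the prostaglandin D synthase gene Ptgds, -1.43 for Pla2g7, which breaks down platelet-activating factor, -0.52 for the aldose reductase gene Akr1b3, 0.87 for the glutathione transferase gene Mgst3 and -0.37 for Pla2g4b, with limma adjusted p of 0.760 to 0.860. Of the wt and Card9-/- arrays, 3 and 1 had Slco2a1 well above background and 2 and 3 had Ptgds so, and both differences are limited by background. Pla2g4a, the cytosolic phospholipase that frees arachidonic acid, picked with its values known, was at -3.73, -3.09, 2.97 and 2.81 in wt and -1.93 to -1.17 in Card9-/-, highest on wt replicates 3 and 4 as were most enzymes.

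**Figure D5:**
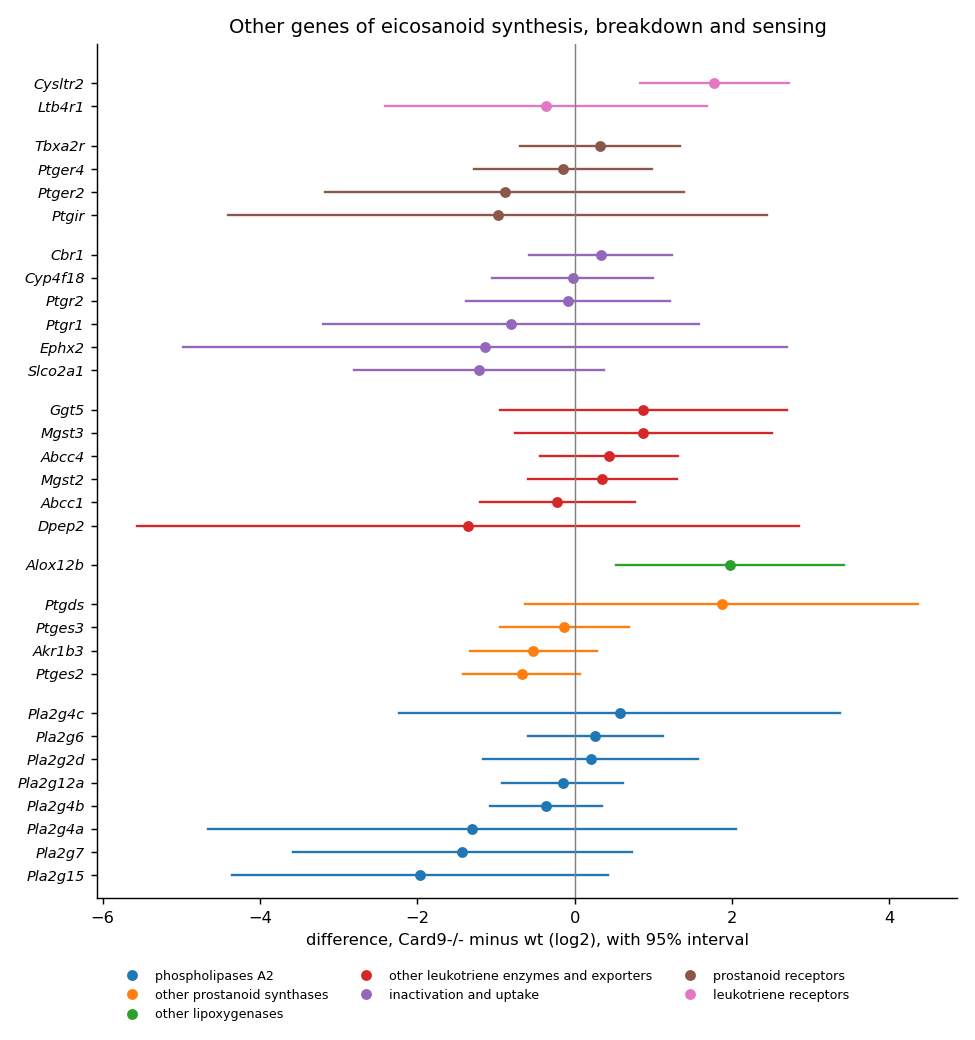
Difference between genotypes (Card9-/- minus wt, log2) with its 95% interval from limma for the 31 tested genes of supply, breakdown and sensing, coloured by role. The intervals of Cysltr2 and Alox12b lie above 0 before adjustment, and 0 of the 31 genes passed after it.

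The genes whose levels followed the initiating enzymes most closely over the 8 arrays were named by Pearson's r among 11881 genes, as a description with no p. For Ptgs1 they were Scamp1, Zfand5 and Dapk1, each at 0.99 (Spearman's rho of 1 each) and still at 0.97 to 0.99 over the 6 arrays without wt replicates 3 and 4. For Alox5 they were Anpep, Alox15 and Abtb2 (0.98 to 0.99, rho 0.93 to 0.98), and for Alox15 they were Ltbp3, Pygl and Retnla (0.99 each, rho 0.95 to 1). For Ptgs2 they were Dusp5 (0.97), Il1r1 (0.96) and Sbk1 (0.96), with rho of 0.98, 0.86 and 0.95. Their r was 0.87, 0.77 and 0.78 over the 6 arrays without wt replicates 1 and 2. These arrays share the spread in cell markers given above, and r picked as the highest of so many genes is high by choice.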

How the data were processed

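Groups and replicate numbers come from the labels. The members and gene lists were chosen with earlier results of these data known. The deposited intensity values were, per the file headers, read and background-subtracted by Agilent Feature Extraction 10.7.1.1 with detrending within each array and no scaling between arrays; probe coordinates are mm9. The authors' matrix of log2 values, quantile normalized as the values show, was used only as an alternative. After row 49670 of its 56745 rows the values belong to the next identifier, so only the rows before were used (18 of 19 member probes). Its columns matched best a scanner file of the same genotype in 8 of 8 and of the same replicate in 2 of 8.

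Of 56605 probes, outlier spots were set to missing, repeated spots averaged, and the log2 processed signal scaled by the 75th percentile of each array. A probe was kept if it stood well above background on 3 or more of the 4 arrays in wt or in Card9-/- (28169 probes), and the brightest stood for its gene (18621 genes, named as in the files). The comparison of genotypes used limma 3.58.1 (R 4.3.3), two-sided, with Benjamini-Hochberg adjustment over all genes at 0.05, and single members by exact two-sided permutation over all 70 assignments. The fit was tested on simulated data. All 10 members were named, then the 10 other pathway genes with the smallest p, and 3 genes most correlated with each of 4 initiating enzymes. Alternatives were other scaling, background correction, filters, probe rules, slide and replicate blocks, the authors' matrix, averaging wt replicates 1 and 2, and leaving out each array. The number of arrays limits the precision.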

Additional observations from a re-analysis of the deposited data

Results flagged for a closer look

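Of 40 groups of 4 arrays examined, for the 10 members and the 10 other pathway genes named by the smallest p, 1 held an array far from its group, where chance gives about 1 in 20. In Card9-/- the prostaglandin transporter gene Slco2a1 was at -2.97 on replicate 4 and at -5.86 on the nearest other array, a gap of 0.877 of the whole range. It was well above background on 1 Card9-/- array. No member was so marked in either group, and with 2 arrays at each end of the wt range, as in most members, a single far array cannot be marked.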

How the results depend on the processing

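Under 19 alternatives 0 members passed in limma, and 174 of 190 member differences kept their direction. Those that turned were Ptges (0.087) and Lta4h (0.045) with quantile normalization, Ptges (0.044) and Lta4h (0.042) in the authors' matrix, and Tbxas1 (0.12), Alox5 (0.30), Alox5ap (0.066), Alox15 (0.27) and Lta4h (0.13) with the macrophage marker mean as a covariate, which was chosen after the data were seen. Leaving out each array gave ranges of -2.84 to 0.28 for Ptgs1, -1.88 to 0.40 for Tbxas1, -1.83 to 0.37 for Alox5, -1.98 to 0.041 for Alox5ap, -2.76 to 0.27 for Alox15 and -0.36 to 0.21 for Lta4h, positive without wt replicate 3 in all 6 and for Lta4h also without Card9-/- replicate 4. Ptgs2 stayed above 0 in all 19 (0.44 to 1.96). Averaging the probes of a gene moved Ptges to -1.62. The count of all genes called, 5, was 0 when blocked on slide and 0 using slide 1 alone (1658 and 1637 at an unadjusted p under 0.05), where the contrast rests on a lone Card9-/- array assumed to vary like the wt arrays. Replicate numbers did not pair the samples (correlations of same-numbered deviations of -0.13, 0.25, -0.12 and -0.28), and with the replicate number as a block 3 genes and 0 members were called. The median of all genes moved from -0.09 to -0.26 with median scaling, 0.03 with normexp and 0.32 without a filter on dim probes. Ptgs1 was not well above background on 1 array and Alox15 on 2, which limits their lowest levels.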
